A study of Mus musculus with 27 samples.

Results

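Of the 27 libraries of the series, 7 compare C57BL/6J mice that received a Cas13 effector with crRNA-13 against C57BL/6J mice that received a reporter only. They were chosen by their labels. The crRNA-13 group holds 3 libraries (replicates 1, 2 and 5) from mice given RfxCas13d-N2V8 with crRNA-13, named S13 in the labels, together with EGFP-KASH. The reporter group holds 4 libraries (replicates 2, 3, 4 and 5) from mice given EGFP-KASH only. All 7 are non-transgenic C57BL/6J mice, the littermates of C9-BACexp mice, which carry the human C9ORF72 gene with its repeat expansion. RfxCas13d-N2V8 is a high-fidelity form of RfxCas13d, an RNA-guided ribonuclease, and crRNA-13 was designed against the human C9ORF72 RNA. C57BL/6J mice have no human C9ORF72 gene, so the comparison asks what the effector vector changed where its human target is absent. EGFP-KASH is a green fluorescent protein held at the outer nuclear membrane by a KASH domain, and it was used to sort nuclei of transduced cells from motor cortex.

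Mice were injected into the motor cortex with AAV of the PHP.eB capsid. The crRNA-13 mice were 6 weeks old at injection, received 2e10 vector genome copies of each of the 2 vectors, and were sampled 2 months later, with the effector under the ubiquitous CAG promoter. The age, dose and sampling time of the EGFP-KASH only mice are not stated in the sources used here. Since those mice received no effector vector, the total vector dose, the RfxCas13d-N2V8 protein and crRNA-13 cannot be told apart in this comparison. A second control, 5 C57BL/6J mice with a non-targeted crRNA (NTG) and EGFP-KASH, is given beside the results. The totals of the 7 libraries were 21508829 to 36028217 counts. The labels call the nuclei primary neurons, and markers of neurons in general summed to 14240 to 19130 CPM (counts scaled to a common library total after TMM), while markers of oligodendrocytes summed to 1413 to 3664 CPM and those of microglia to 76.8 to 165 CPM. Marker RNA of several cell types was thus measured together in each library, and whether all of it came from sorted nuclei was not tested. In stained C9-BACexp mice the paper found EGFP-KASH mostly in neurons, with limited expression in astrocytes and microglia. In such bulk samples fewer cells of a type and less RNA per cell cannot be told apart.

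Most of the genes that rose belong to lists of the interferon response, which is the main antiviral program of mammalian cells. Foreign RNA is bound by the kinase PKR and by sensors such as RIG-I and MDA5, which lead to the release of type I interferon. Interferon receptors then act through a complex of STAT proteins and IRF9 that binds the interferon-stimulated response element (ISRE) in promoters and switches on antiviral effectors, guanylate-binding proteins, immunity-related GTPases and the MHC class I pathway. In the brain, neurons and glia all respond to interferon, and astrocytes and microglia also raise complement and glial reactivity genes.

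Short stretches of promoter are shown as examples for 6 of the genes that rose and held an ISRE-type match. These 6 share the letters because only genes with a match could be shown. The letters therefore do not describe the genes that rose as a set, for which the share with a match is given below. A match was GAAA, any 2 bases and GAAA on either strand, and matches may overlap. Each line gives 30 bases in the direction of transcription, with the matched bases in capitals. The sequences are those of RefSeq for GRCm38.p6, matched by gene symbol or gene ID.
Ddx60, an RNA helicase of antiviral sensing: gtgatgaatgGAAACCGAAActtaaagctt
Ifit3, an antiviral RNA-binding adaptor: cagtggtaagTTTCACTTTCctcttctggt
Eif2ak2, the kinase PKR: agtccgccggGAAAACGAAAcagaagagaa
Gbp5, a guanylate-binding protein: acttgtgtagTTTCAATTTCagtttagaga
Irgm2, an immunity-related GTPase: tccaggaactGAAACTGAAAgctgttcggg
Oas1g, an oligoadenylate synthetase: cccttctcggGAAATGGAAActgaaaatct
The stretches lie on chromosome 8 at 61928024 to 61928053 (plus strand, Ddx60), chromosome 19 at 34583363 to 34583392 (plus strand, Ifit3), chromosome 17 at 78882535 to 78882564 (minus strand, Eif2ak2), chromosome 3 at 142496759 to 142496788 (plus strand, Gbp5), chromosome 11 at 58214903 to 58214932 (plus strand, Irgm2) and chromosome 5 at 120887612 to 120887641 (minus strand, Oas1g). Ifit3 and Gbp5 held the match on the strand opposite to transcription. The match of Eif2ak2 began 18 bases after the start site, and those of the other 5 genes began 18, 53, 64, 156 or 165 bases before it. Promoters here reach from 250 bases before to 50 bases after the start. Of the genes called higher with crRNA-13, 47 of 72 had an entry and 18 of those 47 (38.3%) held a match, against 601 of 16297 (3.69%) among all genes tested. None of 10 entries of the genes called lower held one. Of all 154 tested members of the sensor, IRF and STAT, effector, GTPase and MHC class I lists, 117 had an entry and 47 of those (40.2%) held a match. Oas2, Nlrc5, Parp10, Gm4951, Gbp9, H2-T24 and Gbp10 were not matched to an entry.

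Reporter and target were read in every library first. EGFP-KASH stood at 59.2, 38.0, 9.42 and 33.2 CPM in EGFP-KASH only replicates 2, 3, 4 and 5 and at 54.6, 22.6 and 45.5 CPM in crRNA-13 replicates 1, 2 and 5. The groups overlapped, with replicate 4 of the reporter group lowest. The difference of crRNA-13 from EGFP-KASH only was 0.39 on the log2(CPM + 0.5) scale (exact permutation test, two-sided, p = 0.714, where the smallest p that 3 against 4 libraries allow is 0.0571), and it turned to -0.13 without that replicate. Mouse C9orf72, the gene of the host, stood at 10.4, 14.8, 32.8 and 32.5 CPM with EGFP-KASH only and at 15.3, 23.9 and 21.9 CPM with crRNA-13, again overlapping (difference -0.0093, exact permutation test, p = 0.943). Human C9ORF72 transcripts V1, V2 and V3 were at 0 counts in the 4 reporter libraries and in crRNA-13 replicates 1 and 2, which allows up to 3 counts each, or 0.0814 to 0.144 CPM, for counting error only. The library of crRNA-13 replicate 5 held 11.8 counts of V2 and 4.25 counts of V1 and none of V3.

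Over 21768 genes tested, 72 were called higher (0.331%) and 16 lower (0.0735%) with crRNA-13 than with EGFP-KASH only, counting genes whose fold change exceeded 1.2 with adjusted p below 0.05 (edgeR, 1 model of all 27 libraries with 4 factors of unwanted variation). Of the 72 genes that rose, 47 were among the 154 tested members of the 5 interferon and MHC class I lists, or 30.5% of those members, against 0.404% of all genes called in either direction. Log2 fold changes of all 72 reached from 0.35 to 10.1 with a median of 3.27, while those of the 16 genes that fell reached from -0.36 to -1.21 with a median of -0.59. The median over all genes tested was 0.015. The level in all 3 crRNA-13 libraries exceeded that in all 4 reporter libraries for 50 of the 72 genes (background 2.58% of genes tested), and lay below for 6 of the 16 (background 2.32%).

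These calls depend on the 4 factors and on single libraries. Without factors edgeR called 0 genes, with 594 higher and 445 lower at an unadjusted p under 0.05, limma-trend without factors called 0, and DESeq2 without factors called 69 higher and 21 lower, 47 and 3 of them among the calls above. Without crRNA-13 replicate 5, edgeR with 4 factors called 44 genes higher, 13 of them among the 72 and 4 of them in the interferon and MHC class I lists. Without crRNA-13 replicate 1 it called 59 higher and 7 lower, and without crRNA-13 replicate 2 it called 142 higher, 73 of them in those lists, and 12 lower. Leaving out reporter replicate 2 gave 203 higher and 194 lower, replicate 3 gave 40 higher (18 in those lists) and 31 lower, and replicate 4 gave 26 higher (19 in those lists) and 3 lower. Without crRNA-13 replicate 5 and reporter replicates 4 and 5 together, a setting chosen after seeing the data, 58 were called higher and 8 lower, of which 5 and 1 were among the calls above and 2 were in those lists. All 72 genes still lay above 0 without factors and without crRNA-13 replicate 5, with a median log2 fold change of 3.26 without factors and 2.35 without that replicate. Without crRNA-13 replicate 5 and reporter replicates 4 and 5 together, 71 of the 72 did. As the 72 were picked for being higher in these same libraries, that is a description.

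**Figure D1:**
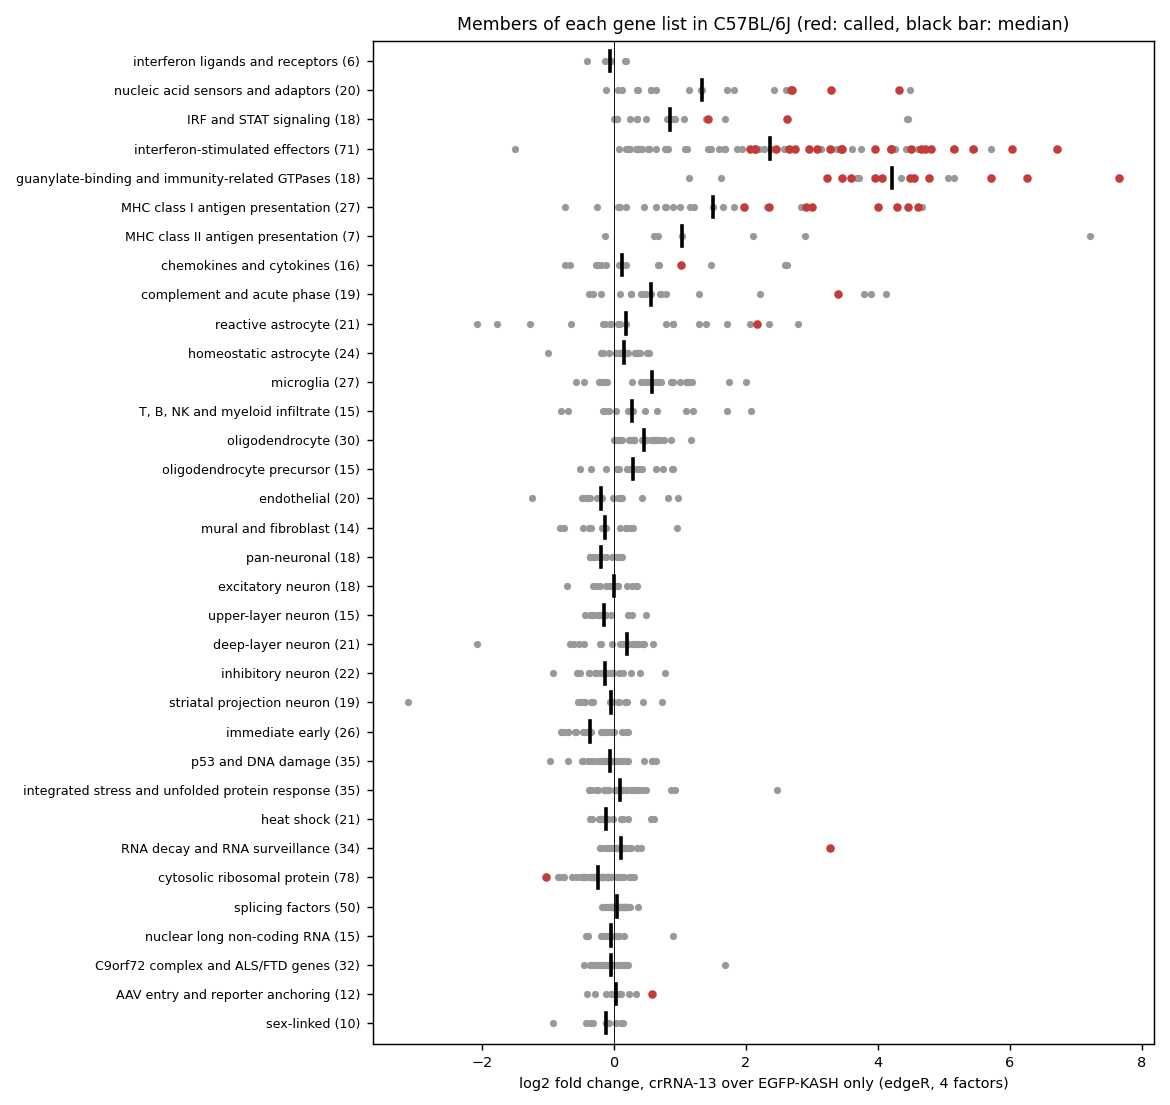
Log2 fold change of C57BL/6J mice with crRNA-13 over those with EGFP-KASH only (horizontal axis, edgeR with 4 factors) for the tested members of each of 34 gene lists (rows, number tested in parentheses). Red points are called genes, grey points are not called and black bars are list medians. The medians are 2.36 for interferon-stimulated effectors, 4.20 for guanylate-binding and immunity-related GTPases and 1.5 for MHC class I, and lie from -0.37 to 1.32 for the other lists.

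The interferons themselves were at or near 0. Ifnb1, Ifna1, Ifna2, Ifna4 and Ifna5 were at 0 counts in all 7 libraries, and Ifng, Ifne and Ifnk had at most 1.89 counts in any of them, so none could be tested. Of the 6 receptor subunits and relatives tested, none was called by edgeR, limma-trend or DESeq2, 0 reached an unadjusted p under 0.05 in edgeR, and their median log2 fold change was -0.060. Ifnar1, a subunit of the type I interferon receptor, lay between 32.3 and 37.1 CPM with EGFP-KASH only and between 29.8 and 32.4 CPM with crRNA-13 (log2 fold change -0.14, SE 0.074, adjusted p = 0.484). Ifngr2, a subunit of the interferon gamma receptor, had a log2 fold change of -0.070 (SE 0.16, adjusted p = 0.929).

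Among 20 nucleic acid sensors and adaptors 4 rose and 16 did not pass, with a list median of 1.32, and 7 lay wholly above the reporter libraries. Ddx58, which encodes RIG-I, was measured at 1.15, 1.52, 3.20 and 3.34 CPM with EGFP-KASH only and at 7.60, 3.45 and 42.1 CPM with crRNA-13. Replicate 2 of the crRNA-13 mice was only just above the highest reporter library, and replicate 5 was far above both of its group. The log2 fold change was 2.70 (SE 0.51, adjusted p = 0.0154). Ifih1, which encodes MDA5, stood between 2.65 and 3.55 CPM in the 4 reporter libraries and at 10.7, 6.44 and 49.7 CPM with crRNA-13 (log2 fold change 2.68, SE 0.55, adjusted p = 0.026). Eif2ak2, which encodes PKR, stood between 1.58 and 6.08 CPM and at 15.8, 9.28 and 94.4 CPM (3.29, SE 0.52, adjusted p = 0.00742). Ddx60, a helicase that aids RIG-I signaling, stood between 0.127 and 6.81 CPM and at 32.1, 6.86 and 112 CPM (4.31, SE 0.68, adjusted p = 0.00742). In all 4 of these sensors the order of the crRNA-13 mice was replicate 5, replicate 1, replicate 2. Without replicate 5, none of the 4 kept its call, with adjusted p between 0.0631 and 0.178.

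In the list of IRF and STAT factors, which carry the interferon signal into the nucleus, 2 of 18 tested members were called (median 0.85). Stat2 stood between 25.4 and 39 CPM with EGFP-KASH only and at 76.6, 44.7 and 158 CPM with crRNA-13, with no overlap (log2 fold change 1.42, SE 0.27, adjusted p = 0.0157). It was not called without crRNA-13 replicate 5 (0.82, adjusted p = 0.0511 by edgeR) or without reporter replicate 4 (1.27, adjusted p = 0.0902). Irf7, which amplifies the response, was at 0.0479, 0, 0.452 and 0.732 CPM and at 3.79, 1.03 and 15.6 CPM, also without overlap, but did not pass (4.45, SE 1.12, adjusted p = 0.0965). The NTG mice give a scale for single animals: Stat2 was 24.8, 52.0, 42.5, 38.7 and 33.6 CPM in NTG replicates 1 to 5, so that replicate 2 of that group lay above the lowest crRNA-13 mouse.

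**Figure D2:**
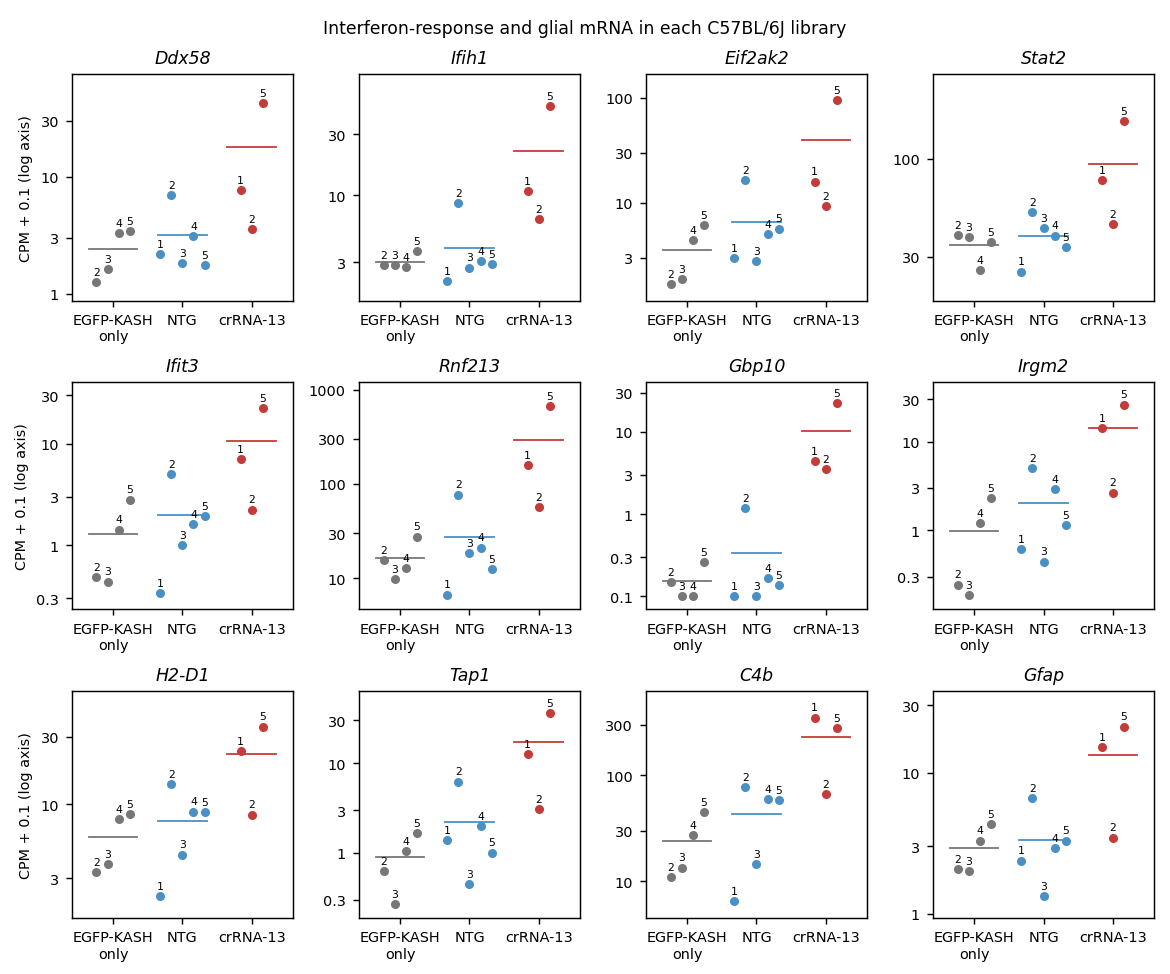
CPM + 0.1 (log axis, which differs between panels) of 12 genes in the C57BL/6J libraries with EGFP-KASH only (grey, n = 4), NTG (blue, n = 5) and crRNA-13 (red, n = 3). Points are libraries with their replicate number and lines are group means. Replicate 5 is the highest crRNA-13 library in every panel but that of C4b, where replicate 1 stands highest at 351 CPM.

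Of 71 interferon-stimulated effectors tested, 22 rose, none fell, and 70 had a log2 fold change above 0, with a median of 2.36. Rnf213, a giant ubiquitin ligase with antimicrobial activity, stood at 15.4, 9.74, 12.8 and 27.6 CPM with EGFP-KASH only and at 158, 57.1 and 668 CPM with crRNA-13. All 3 crRNA-13 mice lay above all 4 reporter mice, and replicate 5 lay far above the other two (log2 fold change 3.95, SE 0.64, adjusted p = 0.00916). Ifit3 stood at 0.383, 0.339, 1.32 and 2.71 CPM and at 6.91, 2.15 and 22.4 CPM. Here crRNA-13 replicate 2 lay below reporter replicate 5 (3.27, SE 0.52, adjusted p = 0.00742). Oas2, which makes the 2-5A messenger of RNase L, stood at 0, 0.0424, 0.290 and 0.787 CPM and at 7.32, 1.63 and 29.7 CPM (6.03, SE 0.95, adjusted p = 0.00742). Parp12 and Parp10, ADP-ribosyl transferases of the antiviral response, had log2 fold changes of 2.13 (SE 0.33, adjusted p = 0.00742) and 4.19 (SE 0.71, adjusted p = 0.00972).

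The largest fitted rises came from genes near the detection limit in the reporter mice. Ifi47 stood between 0 and 0.163 CPM there and at 3.09, 1.26 and 8.61 CPM with crRNA-13 (log2 fold change 6.71, SE 1.37, adjusted p = 0.0253). Mx1, a GTPase that blocks virus replication, stood between 0 and 2.03 CPM and at 5.68, 5.32 and 65.5 CPM (5.14, SE 1.02). Oas1g and Oas1a rose by 5.44 and 4.80, Ifit1 by 4.71 and Oasl2 by 4.65 on the log2 scale, with adjusted p between 0.013 and 0.0364. At such levels the fitted size of a fold depends on a few counts in the reporter libraries. The Oas1 genes and the Ifit genes are families of close copies, and how the count estimates divide shared reads among their members is uncertain. The other effectors that rose were Phf11d, Uba7, Parp14, Mx2, Rtp4, Trim21, Samd9l, Ifi35, Xaf1, Lgals3bp and Ifit2, with log2 fold changes from 2.06 to 4.49.

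The guanylate-binding proteins and immunity-related GTPases, which coat and break the vacuoles of intracellular pathogens, were the list with the largest share of calls. Of 18 tested, 11 rose (61.1%) and all 18 were above 0, with a median of 4.20. Gbp10 stood at 0.0479, 0, 0 and 0.163 CPM with EGFP-KASH only and at 4.35, 3.41 and 22.3 CPM with crRNA-13 (log2 fold change 7.65, SE 1.35, adjusted p = 0.0115). In this gene crRNA-13 replicates 1 and 2 were close to each other. Irgm2 stood at 0.144, 0.0847, 1.1 and 2.20 CPM and at 14.1, 2.57 and 25.9 CPM (4.55, SE 0.80, adjusted p = 0.0108). Gm4951 stood between 0.0479 and 5.83 CPM and at 46.0, 7.65 and 123 CPM (6.25, SE 1.05, adjusted p = 0.00972). Gbp5, which also promotes inflammasome assembly, overlapped between the groups, with 1.12 CPM in crRNA-13 replicate 2 against 1.60 CPM in reporter replicate 5 (3.45, SE 0.58, adjusted p = 0.00972). Gbp4 (5.71), Iigp1 (4.77), Gbp9 (4.49), Igtp (4.06), Gbp6 (3.96), Gbp7 (3.60) and Irgm1 (3.23) completed the list of called members by log2 fold change. Gbp members are close copies of each other, which leaves their separate counts uncertain.

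Of 27 MHC class I genes tested 8 rose and 19 did not pass, with a median of 1.5. H2-D1, a classical class I heavy chain, stood at 3.21, 3.68, 7.81 and 8.44 CPM with EGFP-KASH only and at 23.7, 8.35 and 35.3 CPM with crRNA-13. Replicate 2 of the crRNA-13 mice lay within the range of the reporter mice (log2 fold change 1.96, SE 0.34, adjusted p = 0.00972). Tap1, which carries peptides into the endoplasmic reticulum, stood between 0.169 and 1.57 CPM and at 12.6, 2.99 and 35.8 CPM (4.29, SE 0.72, adjusted p = 0.00972). Nlrc5, the transactivator of class I genes, stood at 2.54, 1.91, 5.84 and 18.3 CPM and at 96.4, 16.7 and 212 CPM, overlapping through reporter replicate 5 (4.0, SE 0.67, adjusted p = 0.00972). H2-Q4 and H2-T24, non-classical class I genes, rose by 4.61 and 2.99, and Psmb8, H2-K1 and Tap2 by 4.46, 2.91 and 2.34. The H2 genes are close copies, so their separate counts are uncertain. None of 7 MHC class II genes was called by edgeR, while DESeq2 with 4 factors called 1. Their median was 1.03, with 6 above 0 and 1 at or below 0. At an unadjusted p under 0.05, 2 were higher and 0 lower (background 6.4% higher), and 0 lay wholly above the reporter libraries. H2-Aa had too few counts to test and reached its highest count, 51.4, in crRNA-13 replicate 5.

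The list sums place the 3 animals. Summed effectors were 615 to 713 CPM with EGFP-KASH only, 615 to 955 CPM with NTG and 815 to 2910 CPM with crRNA-13. Summed GTPases were 4.60 to 40.0 CPM, 9.20 to 87.7 CPM and 48.6 to 635 CPM in the same order. Replicate 5 was the highest of the 7 libraries for 61 of the 72 genes that rose, and replicate 2 the lowest of the crRNA-13 mice for 64. Within the reporter mice, replicates 4 and 5 were both above replicates 2 and 3 for 56 of the 72. The crRNA-13 replicate 5 library and reporter replicate 3 had Ddx3y above Xist, and the other 5 had Xist above Ddx3y. The labels name no sex, and the part of this split in the results was not tested beyond the following fit. With that state as a term beside the 4 factors, a fit chosen after seeing the data, 66 genes were called higher and 16 lower, 63 and 15 of them shared with the calls above.

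**Figure D3:**
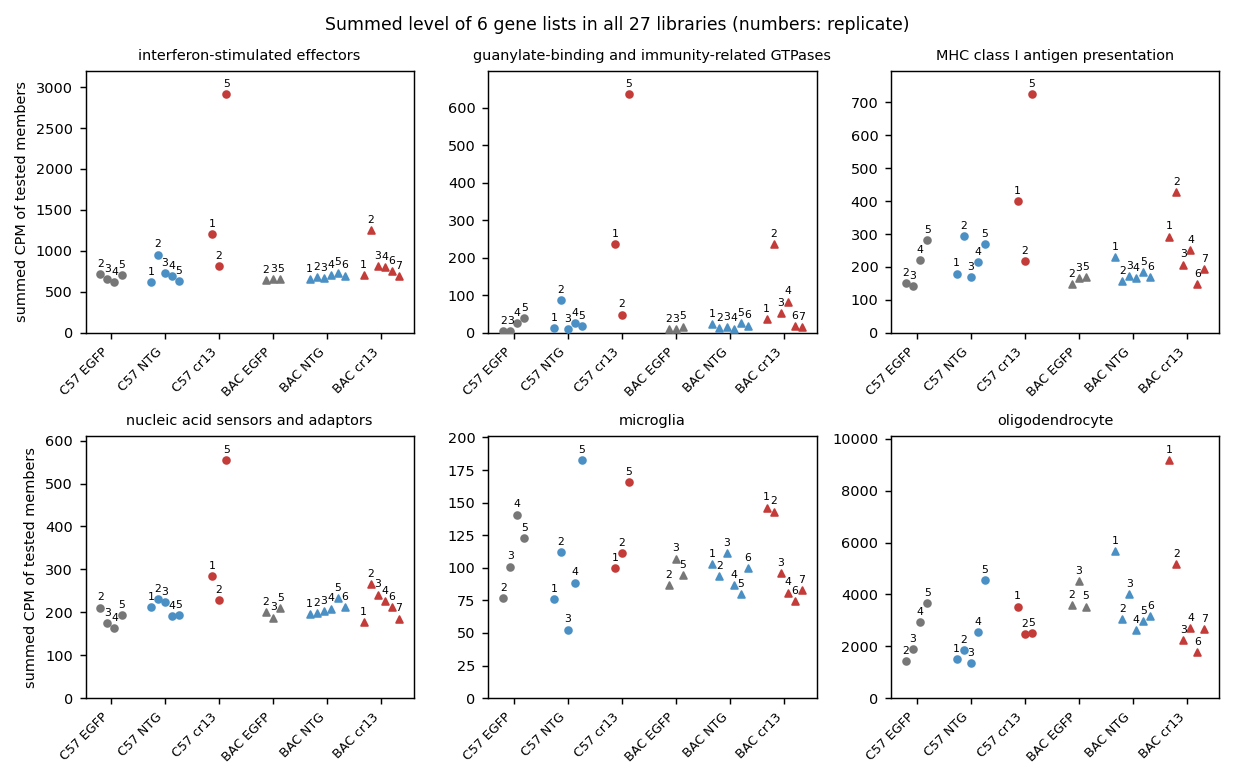
Summed CPM of the tested members of 6 gene lists in all 27 libraries (vertical axes start at 0 and differ between panels). Circles are C57BL/6J (C57) and triangles C9-BACexp (BAC) mice, in grey for EGFP-KASH only (EGFP), blue for NTG and red for crRNA-13 (cr13), with replicate numbers. For the GTPases, C57BL/6J crRNA-13 replicate 5 reaches 635 CPM and the lowest of its group 48.6 CPM, above the 40.0 CPM of the highest reporter library.

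Genes outside the interferon lists rose as well, and being outside these lists does not mark a gene as free of interferon control, as Cd274 below shows. C4b, the complement component of reactive glia and of interferon-treated brain, was the 1 member called of 19 complement and acute-phase genes. It stood at 10.9, 13.3, 27 and 44.9 CPM with EGFP-KASH only and at 351, 66.2 and 279 CPM with crRNA-13, without overlap (log2 fold change 3.39, SE 0.52, adjusted p = 0.00742), and it kept its call without replicate 5 (adjusted p = 0.0408). Gfap, the filament of reactive astrocytes, stood at 1.96, 1.91, 3.20 and 4.23 CPM and at 15.1, 3.36 and 21.1 CPM (2.17, SE 0.48, adjusted p = 0.0456), the 1 call among 21 reactive astrocyte genes, and it kept that call under 6 of 24 alternatives. The members of that list were split, with 13 above 0, 8 at or below 0 and a median of 0.18. Their sum was 31.0 to 40.5 CPM with EGFP-KASH only and 68.1, 23.3 and 78.6 CPM in crRNA-13 replicates 1, 2 and 5. Csf1, the growth factor of microglia, rose from 12.3 to 18.4 CPM in the reporter mice to 39.8, 17.2 and 31.0 CPM (1.02, SE 0.20, adjusted p = 0.0165), the 1 call among 16 chemokines and cytokines. Cxcl10 was too low to test and reached 147 counts in crRNA-13 replicate 5. Zc3hav1, the zinc-finger antiviral protein that marks viral RNA for decay, rose by 3.28 (SE 0.59, adjusted p = 0.013) among 34 genes of RNA decay and surveillance, none of the others of which was called. Syne2, which encodes a KASH-domain protein of the nuclear envelope, stood between 18.7 and 31.9 CPM and at 42.0, 35.6 and 32.2 CPM (0.58, SE 0.12, adjusted p = 0.0359). Further genes called higher included Gm46635, F830016B08Rik, Gm12250, Cd274, Trim12a, Trim56, Il12rb1, AU020206, Trp53cor1, Parp3, Gm52357, Gm44148, Fermt3, Bfsp2, Rtkn2, Adamtsl4, Etv6, Klhl18 and Fbrsl1. Cd274, named after its value was seen, encodes the checkpoint ligand PD-L1, which interferon induces (3.48, SE 0.68, adjusted p = 0.018).

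Markers of other cells were set beside these calls. None of 27 microglial genes was called by edgeR, limma-trend or DESeq2 (median 0.58, 20 above 0, 6 at an unadjusted p under 0.05), and their sum was 76.8 to 141 CPM with EGFP-KASH only and 99.8 to 165 CPM with crRNA-13. Ly86, a surface protein of microglia and other myeloid cells, stood between 0.719 and 12.5 CPM and between 1.96 and 13.3 CPM, with overlap (log2 fold change -0.17, SE 0.93, adjusted p = 0.982). None of 15 tested genes of T, B and NK cells and infiltrating myeloid cells, of 41 in the list, was called by these tools, with 2 at an unadjusted p under 0.05. Their sum was 24.9 to 36.4 CPM and 14.9 to 51.6 CPM, and the 22 members too low to test included 2 that were at 0 in all 7 libraries and none above 46.1 counts. The crRNA-13 replicate 5 library had the highest count for 14 of these 22, among them the T cell genes Cd3e (15.3 counts), Cd3g (28.7), Cd8a (10.6) and Cd8b1 (12.5), and the highest count relative to the library total for 12, and 7 were above 0 in that library only. Summed over the 22, it held 130.2 counts, crRNA-13 replicates 1 and 2 held 60.8 and 3.10, and reporter replicates 2 to 5 held 10.5, 7.05, 3.74 and 22. The crRNA-13 replicate 5 library was also the highest for most of the genes that rose, and the part of these cells in the results was not tested. All 30 oligodendrocyte genes had a log2 fold change above 0 with a median of 0.45 and no call by edgeR, 13 of them at an unadjusted p under 0.05 (background 6.4% higher and 4.8% lower). DESeq2 with 4 factors called 2 of the 30. Mbp, a myelin protein, stood at 208, 303, 409 and 540 CPM and at 640, 407 and 344 CPM (0.43, SE 0.18, adjusted p = 0.374). Sums of oligodendrocyte markers were 1413 to 3664 CPM and 2456 to 3528 CPM. The part of these cells in the results was not tested. No member was called among astrocyte homeostatic (24), oligodendrocyte precursor (15), endothelial (20) or mural and fibroblast (14) markers, nor among pan-neuronal (18), excitatory (18), upper-layer (15), deep-layer (21), inhibitory (22) or striatal projection (19) neuron markers, whose medians lay between -0.20 and 0.28. Of these lists the pan-neuronal and the deep-layer markers each held 7 genes at an unadjusted p under 0.05 and the others 0 to 3. The 7 pan-neuronal genes were all lower (background 4.8% lower), and 13 of the 18 tested lay at or below 0. Of the 7 deep-layer genes 4 were higher and 3 lower. DESeq2 with 4 factors called 1 pan-neuronal, 1 excitatory and 2 deep-layer markers. Values of 3 single markers are given for their levels only, and they do not stand for their lists. Grin2a, a glutamate receptor subunit of excitatory neurons, stood between 1835 and 2434 CPM with EGFP-KASH only and between 1801 and 2534 CPM with crRNA-13. Slc1a2, the glutamate transporter of astrocytes, stood between 555 and 777 CPM and between 551 and 836 CPM. Hs3st4, a heparan sulfotransferase of deep-layer neurons, stood at 1703, 2229, 921 and 865 CPM and at 1987, 2706 and 1486 CPM (log2 fold change 0.60, SE 0.18, adjusted p = 0.176). The median of the deep-layer list was 0.19. None of these 3 genes separated the groups.

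The 16 genes that fell changed less, and 1 of them, Rplp2, was a member of a list. Calm2, a calmodulin gene, stood at 63.6, 72.4, 136 and 136 CPM with EGFP-KASH only and at 57.8, 64.3 and 68.5 CPM with crRNA-13. All 3 crRNA-13 mice lay below reporter replicates 3, 4 and 5, and 2 of them lay above reporter replicate 2 (log2 fold change -0.60, SE 0.080, adjusted p = 0.00548, the smallest of the comparison). Calm3, a further calmodulin gene, did not overlap (75.0 to 126 CPM against 67.1 to 70.1 CPM, -0.49, SE 0.093, adjusted p = 0.0159). Cplx1, which clamps synaptic vesicle fusion, stood at 56.2, 59.3, 102 and 90.8 CPM and at 45.7, 50.8 and 45.7 CPM (-0.65, SE 0.12, adjusted p = 0.013). Ppp3r1, the regulatory subunit of calcineurin, stood at 49.6, 76.7, 190 and 147 CPM and at 51.0, 80.5 and 80.9 CPM (-0.54, SE 0.12, adjusted p = 0.0374). Nrgn, which holds calmodulin at synapses, fell by 0.42 on the log2 scale (SE 0.086, adjusted p = 0.0253), and Pkia, an inhibitor of protein kinase A, by 0.56 (SE 0.11, adjusted p = 0.0253).

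Larger falls came from less abundant mRNAs. Nrep, a neuronal regeneration-related protein, stood at 11.4, 15.9, 23.9 and 15.3 CPM with EGFP-KASH only and at 7.92, 6.53 and 6.35 CPM with crRNA-13, without overlap (log2 fold change -1.21, SE 0.24, adjusted p = 0.0165). Pfdn4, a subunit of the chaperone prefoldin, stood between 6.75 and 11.6 CPM and at 2.93, 4.06 and 3.98 CPM (-1.14, SE 0.22, adjusted p = 0.0163). These 2 falls kept a similar size without factors, at -1.26 and -1.15. Pigx (-1.07), Rplp2 (-1.03), 2810049E08Rik (-0.89), Nrsn1 (-0.87), Ndfip1 (-0.59), Dynll2 (-0.56), Oaz2 (-0.46) and Nudt3 (-0.36) completed the falls by log2 fold change. Rplp2 was the 1 call among 78 cytosolic ribosomal protein genes, whose median was -0.24, with 67 at or below 0 and 21 lower at an unadjusted p under 0.05. For 13 of the 16 genes, reporter replicates 4 and 5 were the 2 highest of the 7 libraries. Over all 16 their sums were 1273 and 1173 CPM, against 630 and 787 CPM in reporter replicates 2 and 3 and 577 to 679 CPM in the crRNA-13 mice. Among the NTG mice replicate 5 stood at 1228 CPM and the other 4 at 602 to 833 CPM. Reporter replicates 4 and 5 also had the highest values of the first factor among the 7 libraries, at 0.28 each. Without reporter replicate 4, 3 genes were called lower, and without reporter replicate 2 194 were. Without crRNA-13 replicate 5 and reporter replicates 4 and 5 together the median over the 16 genes was -0.27, and Ppp3r1 turned to 0.070.

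**Figure D4:**
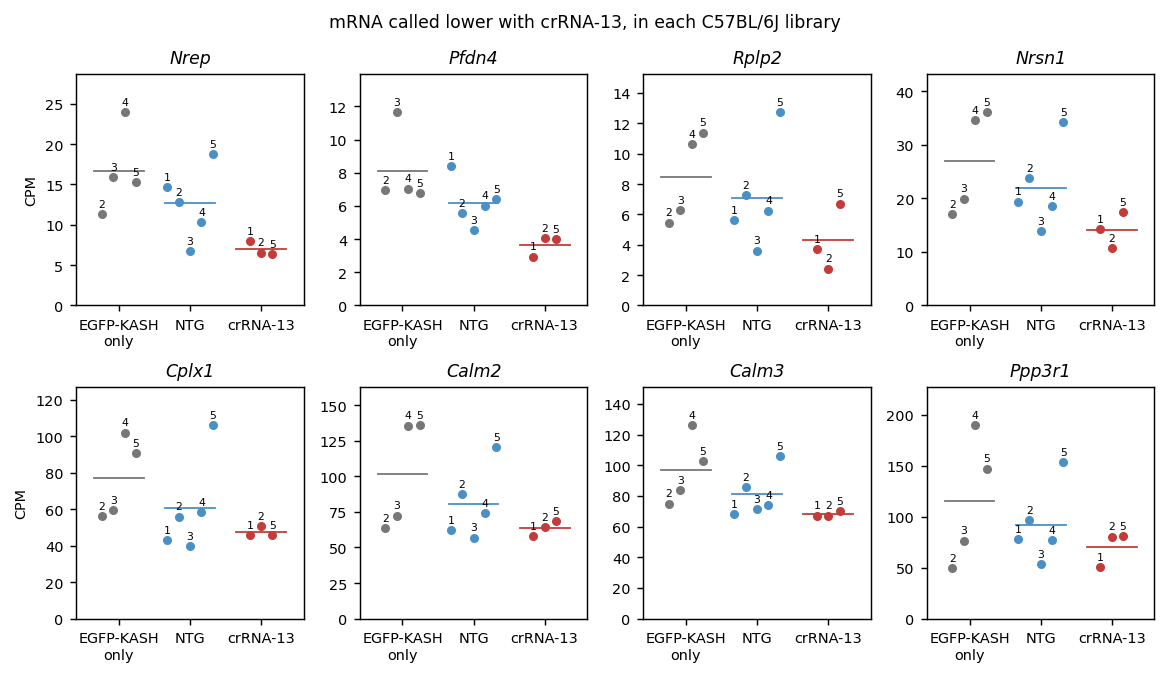
CPM (vertical axes start at 0 and differ between panels) of 8 genes called lower with crRNA-13, in C57BL/6J libraries with EGFP-KASH only (grey, n = 4), NTG (blue, n = 5) and crRNA-13 (red, n = 3). Points carry replicate numbers and lines are group means. Reporter replicates 4 and 5 stand at 136 CPM for Calm2 and NTG replicate 5 is high in the same panels, while Nrep and Pfdn4 do not overlap between reporter and crRNA-13 mice.

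Lists of cell stress and nuclear RNA were read next. By edgeR none was called among 35 genes of p53 and DNA damage (median -0.064), 35 of the integrated stress and unfolded protein responses (0.085), 21 of heat shock (-0.12), 26 immediate early genes (-0.37), 50 splicing factors (0.048), 15 nuclear long non-coding RNAs (-0.055), 32 genes of the C9orf72 complex and ALS/FTD (-0.041) and 10 sex-linked genes (-0.13). Each of these lists held 0 to 6 genes at an unadjusted p under 0.05, and DESeq2 with 4 factors called 1 heat shock gene and 1 nuclear long non-coding RNA. Of the immediate early genes 23 lay at or below 0 and 3 above, with 3 lower and 0 higher at that p. Of the splicing factors 36 lay above 0 and 14 at or below, with 6 higher and 0 lower (background 6.4% higher and 4.8% lower). Mdm4, a regulator of p53, had a log2 fold change of 0.049 (SE 0.062, adjusted p = 0.841), and Atf6, a sensor of unfolded protein, 0.068 (SE 0.087, adjusted p = 0.849). Malat1, a nuclear RNA, had -0.078 (SE 0.076, adjusted p = 0.775). Hspa8, a constitutive chaperone, was at 51.0 to 105 CPM with EGFP-KASH only and at 61.3 to 81.1 CPM with crRNA-13 (-0.21, SE 0.10, adjusted p = 0.452).

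The 2 other C57BL/6J contrasts share libraries with this one, so their values are only set side by side. For crRNA-13 against NTG 66 genes (0.303%) were called higher and 10 (0.0459%) lower, and for NTG against EGFP-KASH only edgeR called 0, with 1693 genes (7.78%) at an unadjusted p under 0.05. The 76 calls against NTG became 0 in edgeR without factors (1047 at an unadjusted p under 0.05) and with 2 factors (1868), 0 in limma-trend without factors (926) and 0 at stricter thresholds (adjusted p below 0.01 and a larger fold), and 42 in limma-trend and 428 in DESeq2 with 4 factors. Leaving out 1 of the 7 libraries gave 18 (without reporter replicate 5) to 217 (without crRNA-13 replicate 5), with 160 without crRNA-13 replicate 2, 48 without crRNA-13 replicate 1 and 34 without reporter replicate 2. The reporter libraries enter this contrast only through the shared fit. No NTG library was left out, so the dependence on single NTG mice was not tested. For NTG against EGFP-KASH only, limma-trend with 4 factors called 0 and DESeq2 59 with and 21 without factors, and edgeR called 1758 without crRNA-13 replicate 5 and reporter replicates 4 and 5. Median log2 fold changes of the effector list were 2.36 against EGFP-KASH only, 1.86 against NTG and 0.46 for NTG against EGFP-KASH only. For the GTPases they were 4.20, 3.12 and 0.88, and for MHC class I 1.5, 1.21 and 0.16. Rnf213 stood at 6.63, 76.9, 18.4, 21 and 12.4 CPM in NTG replicates 1 to 5, where replicate 2 alone lay above the lowest crRNA-13 mouse. NTG replicate 2 was the highest of its group for 55 of the 72 genes that rose.

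In C9-BACexp mice, where the human target is present, the 6 crRNA-13 libraries against the 3 EGFP-KASH only libraries gave 2 genes called higher (0.00919%) and 4 lower (0.0184%), or 0.0276% in all. These 6 calls became 337 in DESeq2 with 4 factors, which called 382 in C57BL/6J mice, 22 in limma-trend with 4 factors and 122 when adjusted jointly over the study's comparisons. With the replicate block edgeR called 0 (2608 at an unadjusted p under 0.05), and limma-trend without factors called 0 (1049). Leaving out 1 C9-BACexp library gave 99 and 61 without reporter replicates 3 and 5, 68 without crRNA-13 replicate 1, 10 without crRNA-13 replicate 2 and 2 without reporter replicate 2, and leaving out C57BL/6J crRNA-13 replicate 2 gave 24. The size of the response in C9-BACexp mice thus cannot be read from the number of calls. The difference between the genotypes in that contrast was called for 1 gene of 21768 (0.00459%), with 2661 (12.2%) at an unadjusted p under 0.05. The gene was Gm31298, named after its value was seen and outside the rule for named genes. It stood at 4.22, 2.12, 0.613 and 0.542 CPM with EGFP-KASH only and at 0.978, 0.513 and 0.518 CPM with crRNA-13 in C57BL/6J mice, and at 0 to 0.849 CPM and 0.839 to 5.54 CPM in C9-BACexp mice (difference of log2 fold changes 4.20, SE 0.51, adjusted p = 0.0012). No gene that rose or fell above was called as different between genotypes in edgeR with 4 factors and adjustment within the contrast, with a smallest adjusted p of 0.061. Over all genes tested, joint adjustment over the study's comparisons called a difference for 95 genes and DESeq2 with 4 factors for 307. The absence of calls among these genes thus holds for that fit only. Of the 72 genes that rose in C57BL/6J mice 65 lay above 0 in C9-BACexp mice, with a median of 1.48 against 3.27. For 68 of the 72 the change was smaller in C9-BACexp mice, 39 of them at an unadjusted p under 0.05. As these genes were picked on the C57BL/6J value, that is a description. Of the 16 genes that fell, 5 lay below 0 in C9-BACexp mice, with a median of 0.10 against -0.59 in C57BL/6J mice. All 16 had an unadjusted p under 0.05 for the difference between genotypes in edgeR. They too were picked on the C57BL/6J value. Single animals stood out in C9-BACexp mice too, where crRNA-13 replicate 2 was the highest of its 6 libraries for 64 of the 72 genes, with Rnf213 at 192 CPM.

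**Figure D5:**
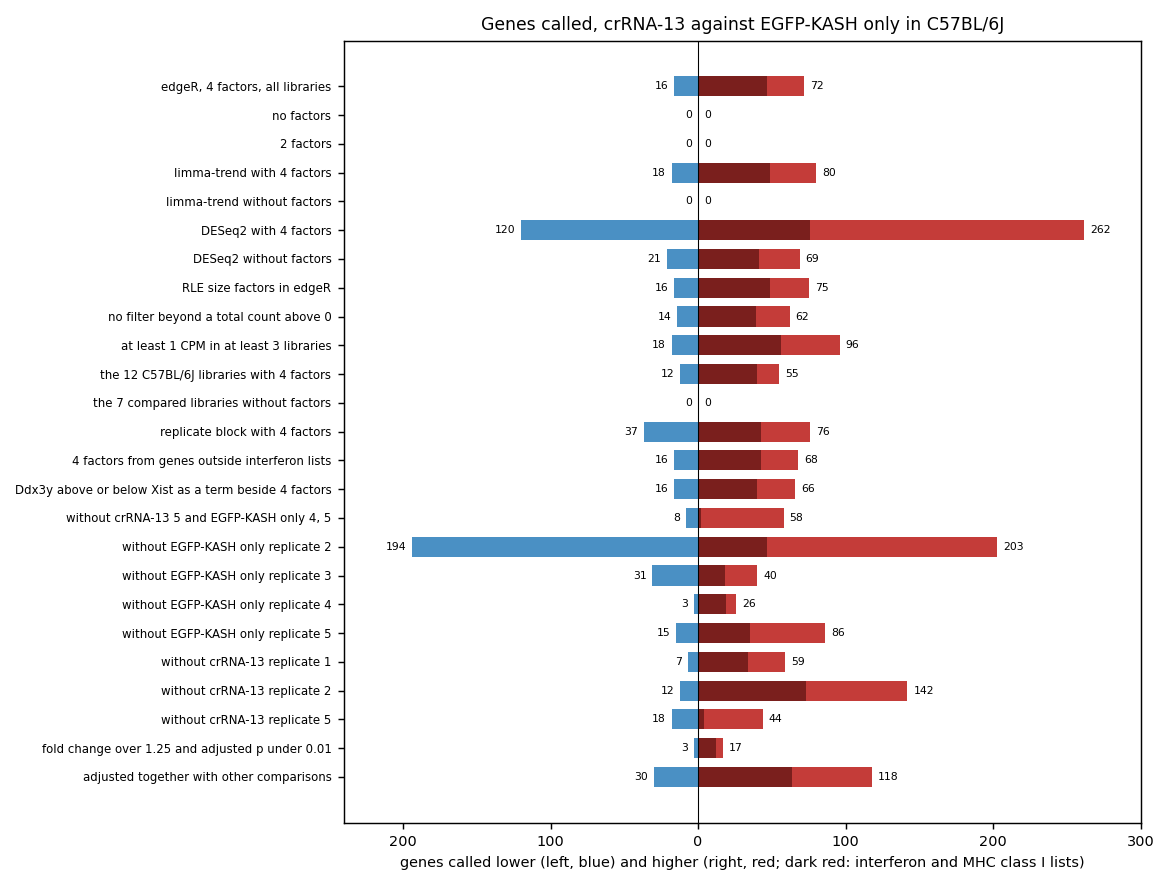
Number of genes called lower (left, blue) and higher (right, red, with those of the interferon and MHC class I lists in dark red) between C57BL/6J mice with crRNA-13 and with EGFP-KASH only under each processing alternative (rows). The count of genes called higher reaches from 0 without factors in edgeR and limma-trend to 262 with DESeq2 and 4 factors, and the dark red part falls from 47 to 4 without crRNA-13 replicate 5.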

How the data were processed

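RNA-seq of sorted EGFP-KASH+ nuclei was deposited as 1 table of 39338 genes and added sequences in 27 libraries, and the totals of the 7 libraries compared here are 21508829 to 36028217. The values are expected counts, which the authors made with Salmon 1.10.0 from 100 nt reads on spliced and unspliced mouse transcripts (GRCm39, annotation release 109) with human C9ORF72 transcripts and EGFP-KASH added, and with tximport under R 4.3.1. They are not normalized between libraries.

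Groups were taken from the sample titles. Counts were rounded, scaled by TMM, filtered with filterByExpr (minimum count 10, minimum total 15) and tested with the robust quasi-likelihood test of edgeR 4.0.16 under R 4.3.3. The model held 6 groups and 4 factors of unwanted variation taken from the residuals of a first fit (RUVr method). The study used 4 RUVSeq factors, and which RUVSeq method it used is not given in the sources used here. All adjusted p-values of genes are from edgeR with Benjamini-Hochberg adjustment over the genes tested in a comparison, unless another tool is named. The SE of a log2 fold change was computed as its size over the root of its F statistic. EGFP-KASH and mouse C9orf72 were compared by two-sided exact permutation tests of log2(CPM + 0.5). limma 3.58.1, DESeq2 1.42.0, other scalings, filters, sample sets and numbers of factors, and leaving out libraries were alternatives. The scripts were tested on simulated data.

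The comparison, the 34 gene lists and the alternatives were chosen with earlier results of these data known, so that neither the lists nor their directions are independent support. The rule for named genes took the 12 called genes that rose most and the 12 that fell most among those with at least 1 CPM on average and no symbol of a predicted gene, up to 5 called members of each list by p, 2 abundant members of a list with none called, and a fixed set (among them Ifnb1, Ifnar1, Ifih1, Ddx58, Irf7, Xist, Ddx3y, the reporter and C9orf72). Further called genes are listed by name. Some genes that the rule took or that were called are not reported here, but stay in the fits and counts. Cxcl10, H2-Aa and Nrgn were added after their values were seen.

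For the NTG mice the labels and the study's text name different effectors (RfxCas13d and RfxCas13d-N2V8). The replicate numbers 2 and 5 recur in both groups and were not taken to pair the mice. Where labels do not say that libraries came from separate animals, p-values measure the spread between these libraries only. A limit for a count of 0 is 3 counts and covers counting error only. The sequence of crRNA-13 is not used here.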

Additional observations from a re-analysis of the deposited data

Results flagged for a closer look

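In 86 sets of values from the reporter mice, 5 had a library far from the others of its group by Dixon's test, and chance alone gives about 1 in 20. Ddx3y stood at 30.8 CPM in reporter replicate 3 and between 0.192 and 0.355 CPM in the others. In the same library Pfdn4, which fell with crRNA-13, stood at 11.6 CPM against 6.75 to 7.04 CPM, and the mean log2 level of upper-layer neuron markers was 4.88 against 5.29 to 5.34. In reporter replicate 5 Gm4951 stood at 5.83 CPM against 0.0479 to 0.452 CPM and Ifih1 at 3.55 CPM against 2.65 to 2.75 CPM. Both remained below all 3 crRNA-13 libraries.

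The difference between genotypes of Gm31298 (4.20 on the log2 scale) passed its test. Human C9ORF72 sequence was counted in 1 library of mice without the human gene, with 11.8 counts of V2 and 4.25 counts of V1 in crRNA-13 replicate 5, where the reporter libraries held 0. The source of these counts was not tested.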

How the results depend on the processing

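In place of 88 genes, edgeR called 0 without factors (594 higher and 445 lower at an unadjusted p under 0.05), with 2 factors (1042 and 836) and in the 7 libraries alone without factors (439 and 340), and limma-trend without factors called 0 (548 and 367). DESeq2 with 4 factors called 382, the stricter thresholds 20 and joint adjustment over the study's comparisons 148. Leaving out 1 library gave 29 (without reporter replicate 4) to 397 (without reporter replicate 2), with 154 without crRNA-13 replicate 2. The count stayed within 1.5 times 88 under the other alternatives. The genotype difference, called for 1 gene, gave 0 without factors in edgeR (1104 at an unadjusted p under 0.05) and limma-trend (934), with 2 factors (1927) and with the replicate block (2484), 307 and 15 with DESeq2 with and without factors, 2 without filter, 95 with joint adjustment, 43 without crRNA-13 replicate 5 and reporter replicates 4 and 5 (chosen after seeing the data), and 0 (without C9-BACexp reporter replicate 2) to 133 (without C57BL/6J reporter replicate 2) when single libraries of either genotype were left out. The cause of these changes was not tested.

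With replicate number as a block, 76 genes were called higher and 37 lower, of which 49 and 12 were among the 72 and 16. Libraries with the same number correlated at 0.146 (replicate 2) and 0.253 (replicate 5) in their deviations from the group means, against -0.263 to 0.209 for other pairs. With 2 shared numbers this does not pair the mice.

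EGFP-KASH turned from 0.39 to -0.13 on the log2 scale without reporter replicate 4, with a range of -0.13 to 0.77 over single omissions. Mouse C9orf72 turned from -0.0093 to 0.22 without reporter replicate 4 or 5 and to 0.18 without crRNA-13 replicate 1, with a range of -0.32 to 0.22. Ppp3r1 turned to 0.070 with 3 libraries left out. Of 2394 alternative values of 100 named genes, 1956 kept their side of the threshold and, where called, their direction, 433 lost their call, 4 gained one and 1 reversed. The 3 crRNA-13 and 4 reporter libraries limit the precision of all counts.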
